A study of Homo sapiens with 2 samples.

Results

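NCAM1 and VCAM1, 2 adhesion molecules of the immunoglobulin superfamily, were followed through 6 populations of SUM159, a line from a human breast carcinoma of the triple-negative class. They are 2 of the 373 genes that the deposited matrices list, and they were picked by name with their levels in these matrices already known, so their levels and folds below are a description with no test. The populations were doxorubicin-resistant, paclitaxel-resistant and treatment-naïve cells, each grown as spheroids (3D) and as attached cells (2D). Resistance had been selected in attached cells by long treatment with increasing drug doses, and the genotype was recorded as wild type in both samples. The spheroid label names the drug populations treated and the series design names them resistant, and no source used here says whether a resistant line is 1 clone. Cells were profiled with the BD Rhapsody targeted Onco-BC panel, in which each molecule carries a unique molecular identifier (UMI).

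The 3 spheroid populations shared 1 cartridge and the 3 attached populations another, so the culture form and the cartridge cannot be told apart. The population of each file was taken from the file's name, because the labels list the populations and their tags without saying which file holds which tag. The matrices held 11889 spheroid cells and 18233 attached cells, between 3751 and 7032 per population. Median depth was 1538.5 to 2340 UMIs in spheroid populations and 3653 to 3814 in attached populations, and 56.0% to 67.7% of spheroid cells reached 1000 UMIs against at least 99.98% of attached cells. No population had a replicate, so no test was possible, and each 95% interval below covers counting error only. No cell barcode was shared within a cartridge, and 264 occurred on both, where barcodes were assigned separately. The 5 markers fixed for the carcinoma line summed to 70991 to 159651 CPM (counts per 1000000 panel UMIs), and 16 genes of natural killer and T cells to 13.6 to 119 CPM.

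NCAM1 (neural cell adhesion molecule, CD56) binds to itself on neighbouring cells and can engage fibroblast growth factor receptors, and is best known from neurons, natural killer cells and neuroendocrine tumours. VCAM1 (vascular cell adhesion molecule) is displayed by activated endothelium and by some stromal and tumour cells, where it binds the integrin α4β1 of leukocytes. Its gene is a classical target of tumour necrosis factor and interleukin 1 through NF-κB. In the RefSeq annotation of GRCh38.p14, NCAM1 lies on chromosome 11 from 112961420 to 113278436 and VCAM1 on chromosome 1 from 100719742 to 100739045. The panel counts tags per gene and the matrices do not say which exon a tag came from.

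The sequence upstream of VCAM1 is shown because the NF-κB route bears on the gene lists compared below. RefSeq promoter sequence was found for 1 of the 2 genes, VCAM1. The 250 bases before its start are given 5′ to 3′ on the plus strand of GRCh38.p14 (chr1:100719492-100719741). Capitals mark matches on either strand to GGGNNNNNCC, a loose form of the κB site, and to TATAAA, the core of a TATA box.
VCAM1: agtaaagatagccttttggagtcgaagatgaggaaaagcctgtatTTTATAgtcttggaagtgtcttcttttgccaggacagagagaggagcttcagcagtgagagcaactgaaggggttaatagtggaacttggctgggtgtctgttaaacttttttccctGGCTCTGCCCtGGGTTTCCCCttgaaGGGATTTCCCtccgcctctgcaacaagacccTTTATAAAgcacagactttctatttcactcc
The neighbouring matches GGGTTTCCCC at 77 to 68 bases and GGGATTTCCC at 62 to 53 bases before the start read as GGGNNNNNCC on both strands, and GGCTCTGCCC at 88 to 79 bases reads so on the opposite strand. TATAAA lies at 29 to 24 bases and overlaps a match on the opposite strand at 31 to 26 bases, and a further opposite match lies at 205 to 200 bases. Of the 35116 RefSeq promoter windows of the same length, 54.4% held at least 1 such match and 10.7% held TATAAA, counting both strands. At least as many matches as in VCAM1 were held by 8.31% for GGGNNNNNCC (5 matches) and 0.365% for TATAAA (3 matches). A match describes letters only and no binding was measured.

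NCAM1 was high in all 4 resistant populations and near the bottom of detection in both treatment-naïve ones. In spheroids it stood at 162 CPM (155 to 170) in doxorubicin-resistant cells and 132 CPM (124 to 140) in paclitaxel-resistant cells, against 10.6 CPM (8.80 to 12.7) in treatment-naïve cells. In attached cells it stood at 227 CPM (221 to 232) with doxorubicin resistance and 194 CPM (188 to 199) with paclitaxel resistance, against 6.07 CPM (5.07 to 7.21) in treatment-naïve cells. These levels rest on 1710, 1114 and 120 UMIs in spheroids and on 6672, 4529 and 130 UMIs in attached cells, in the same order of populations. The intervals of the resistant and treatment-naïve populations lie far apart, and the level with doxorubicin resistance lies above that with paclitaxel resistance in each culture form.

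**Figure D1:**
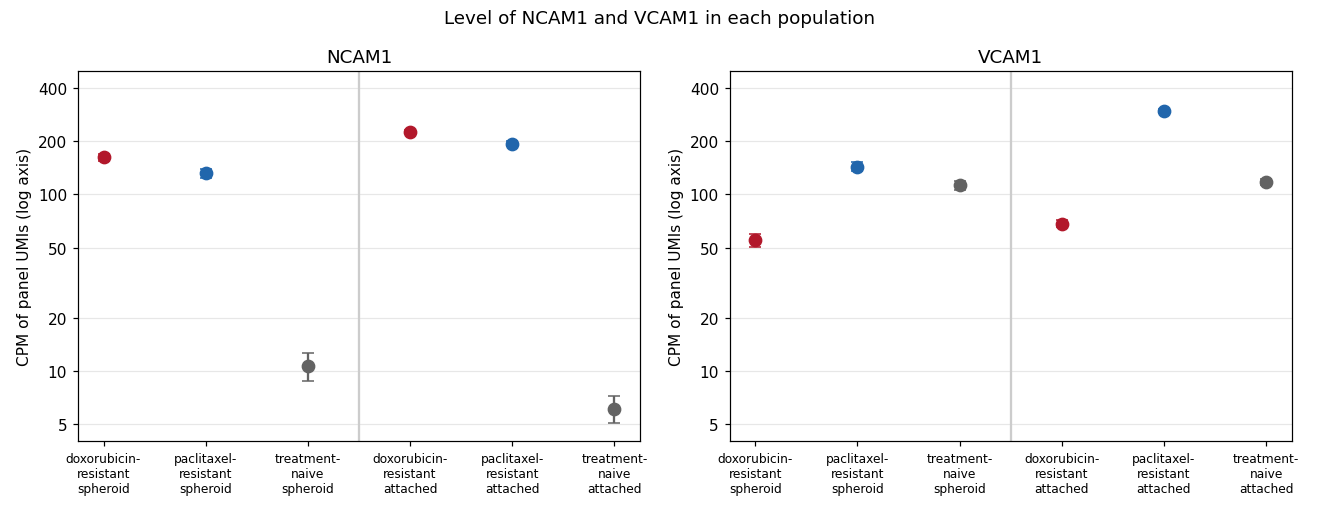
Level of NCAM1 (left) and VCAM1 (right) in the 6 populations, in CPM of panel UMIs on a log axis, with exact Poisson 95% intervals that are often smaller than the points. NCAM1 lies at 132 CPM or more in all resistant populations and at 10.6 CPM or less in treatment-naïve cells, whereas VCAM1 ranges over 54.8 to 296 CPM with paclitaxel-resistant cells highest and doxorubicin-resistant cells lowest.

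A gene was called when the fold of CPM was at least 2 and the higher population held at least 50 UMIs, and genes with at least 50 UMIs in either population are referred to as measured. NCAM1 was called higher in all 4 comparisons with treatment-naïve cells. In attached cells it was 37.3-fold (31.4 to 44.8) higher with doxorubicin resistance, the sixth highest fold of 268 measured genes, of which 24.3% were called higher and 22.8% lower. With paclitaxel resistance it was 31.9-fold (26.8 to 38.3) higher, the third highest of 262, of which 20.2% were called higher and 25.2% lower. In spheroids the folds were 15.3 (12.7 to 18.5) with doxorubicin resistance, where 16.5% of 260 genes were called higher, and 12.4 (10.3 to 15.1) with paclitaxel resistance, where 9.92% of 252 were. Since the gene was chosen with these folds known, its ranks are no evidence beyond the values themselves. The size of the spheroid folds moved with the choice and weighting of cells. In doxorubicin- and paclitaxel-resistant spheroids they were 4.44 and 3.56 with the mean of each cell's CPM, 17.4 and 14.2 with cells of at least 1000 UMIs, and 35.8 and 28.8 with cells best matched to their own population. NCAM1 separated the 2 resistant lines little: it was 1.23-fold (1.14 to 1.33) higher in doxorubicin-resistant than in paclitaxel-resistant spheroids and 1.17-fold (1.13 to 1.22) in attached cells, where the median log2 fold over all measured genes was 0.28 and 0.15.

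VCAM1 differed between the 2 resistant lines, which lay on either side of treatment-naïve cells. In spheroids it stood at 54.8 CPM (50.4 to 59.5) in doxorubicin-resistant cells and 144 CPM (136 to 152) in paclitaxel-resistant cells, against 112 CPM (106 to 119) in treatment-naïve cells. In attached cells it stood at 68.3 CPM (65.4 to 71.4) and 296 CPM (289 to 303) in the doxorubicin-resistant and paclitaxel-resistant populations, against 118 CPM (113 to 122) in treatment-naïve cells. The order of the 3 populations was the same in 2D and 3D, with paclitaxel-resistant cells highest and doxorubicin-resistant cells lowest, although the paclitaxel-resistant and treatment-naïve spheroids change places when UMIs are not scaled to the total (0.954-fold).

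VCAM1 was called higher in attached paclitaxel-resistant cells, 2.52-fold (2.40 to 2.63) over treatment-naïve cells, where 20.2% of genes were called higher. It was 1.28-fold (1.18 to 1.38) in paclitaxel-resistant spheroids, under the 2-fold rule. In doxorubicin-resistant spheroids it was called lower, 2.05-fold (1.86 to 2.27) below treatment-naïve spheroids, a comparison in which 17.3% of genes were called lower. This call sits at the limit of the rule and was lost (0.566-fold) when the 5 most abundant genes were left out of the totals. In attached doxorubicin-resistant cells it was 1.72-fold (1.62 to 1.83) lower, with no call. Set against each other, doxorubicin-resistant cells held 4.34-fold (4.12 to 4.56) less VCAM1 than paclitaxel-resistant cells when attached and 2.62-fold (2.37 to 2.90) less as spheroids, both called. Of all genes measured, 9.96% were called lower in the attached comparison and 4.78% in that of the spheroids, and VCAM1 was the third lowest of 261 and the sixth lowest of 251.

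Between culture forms, VCAM1 was called in the paclitaxel-resistant line alone, 2.06-fold (1.94 to 2.19) lower in spheroids than in attached cells, where 14.5% of 255 genes were called higher and 24.3% lower. This call was lost (0.511-fold) without the 5 most abundant genes in the totals, and with unscaled totals the doxorubicin-resistant line was also called lower (0.287-fold). It was 1.25-fold (1.14 to 1.37) lower in doxorubicin-resistant spheroids and 1.05-fold (0.978 to 1.12) lower in treatment-naïve spheroids, both without a call, where 15.7% and 24.2% of genes were called lower and 17.9% and 18.2% higher. NCAM1 had no call between culture forms in CPM of summed UMIs, whereas unscaled totals called it lower in spheroids of the doxorubicin- and paclitaxel-resistant lines (0.256- and 0.246-fold). It was 1.40-fold (1.32 to 1.47) lower in doxorubicin-resistant and 1.47-fold (1.37 to 1.57) lower in paclitaxel-resistant spheroids, beside a median over all genes of -0.34 and -0.41 on the log2 scale. In treatment-naïve spheroids it was 1.75-fold (1.35 to 2.26) the level of treatment-naïve attached cells, a direction that turned (0.923-fold) with unscaled totals and (0.776-fold) when only cells resembling their own population were kept, and that was called higher (5.56-fold) with the mean of each cell's CPM.

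Among the other genes of the superfamily in the files (ALCAM, PVR, CD244, THY1 and TIGIT), calls over treatment-naïve cells came with doxorubicin resistance alone. With paclitaxel resistance neither of the 2 measured members was called in either culture form. Of all genes, 20.2% and 9.92% were called higher there in attached cells and spheroids, and 25.2% and 20.2% lower. With doxorubicin resistance all 3 measured members were called higher in attached cells, with a median log2 fold of 2.67 against 0.13 over all genes, and 2 of 3 in spheroids, where 24.3% and 16.5% of all genes were called higher. So few genes allow no statement on the group. ALCAM, a receptor for CD6 that also binds itself, stood at 606 CPM in attached doxorubicin-resistant cells against 95.3 CPM in treatment-naïve cells, 6.36-fold (6.07 to 6.66). CD244, a lymphocyte receptor of the SLAM family, was 20.4-fold (9.70 to 51.3) higher but at 6.66 CPM against 0.327 CPM. THY1 and TIGIT held too few UMIs to be measured in any population.

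Integrins and receptors that can act as partners of these molecules were called in part. Of 6 measured, 2 were called lower and none higher in attached doxorubicin-resistant cells, beside 22.8% and 24.3% of all genes, and 2 lower and 1 higher in attached paclitaxel-resistant cells, beside 25.2% and 20.2%. ITGB1, the β1 chain of the VCAM1 receptor, was abundant and without a call, at 21773 and 19688 CPM in attached doxorubicin- and paclitaxel-resistant cells against 22669 CPM in treatment-naïve cells. FGFR4, of the growth factor receptor family that NCAM1 can engage, was lower in all 4 resistant populations. It was 15.6-fold (13.3 to 18.4) and 26.4-fold (21.0 to 33.6) lower in doxorubicin- and paclitaxel-resistant spheroids. In attached cells it was 7.05-fold (5.28 to 9.56) lower with doxorubicin and 6.40-fold (4.71 to 8.85) lower with paclitaxel resistance.

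The TNF, interleukin 1 and NF-κB genes did not share the direction of VCAM1 in paclitaxel-resistant cells. In attached paclitaxel-resistant cells 7 of 12 measured genes were called lower and 1 higher, beside 25.2% and 20.2% of all genes, with a median log2 fold of -1.82 against -0.02 over all genes, while VCAM1 was higher. PTGS2, the inducible cyclooxygenase, stood at 297 CPM against 11798 CPM in treatment-naïve cells, 39.7-fold (38.8 to 40.7) lower, and IL1B, the cytokine interleukin 1β, at 863 CPM against 24049 CPM, 27.9-fold (27.5 to 28.3) lower. CSF1, the macrophage growth factor, was the called exception at 2.11-fold (2.07 to 2.14) higher. In attached doxorubicin-resistant cells, where VCAM1 was lower, 5 of 13 were called lower and 4 higher, beside 22.8% and 24.3% of all genes, with CCL4 (31.3-fold) and IL6 (5.25-fold) among the higher. In spheroids 5 of 13 fell and 2 rose with doxorubicin resistance, beside 17.3% and 16.5% of all genes, and 6 of 11 fell and none rose with paclitaxel resistance, beside 20.2% and 9.92%.

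Beyond the level, the 2 genes differed in how they were spread over cells. NCAM1 UMIs were found in 29.4% (27.9 to 30.9) of doxorubicin-resistant, 21.6% (20.3 to 22.9) of paclitaxel-resistant and 2.18% (1.77 to 2.66) of treatment-naïve spheroid cells. In attached cells the shares were 55.0% (53.9 to 56.2), 48.7% (47.5 to 50.03) and 2.34% (1.95 to 2.78) in the same order. No population is known to lack NCAM1, so the treatment-naïve share has no lower background to be set against. With every cell thinned to 1000 UMIs, which leaves out the shallower cells, the shares were 14.2%, 13.7% and 0.819% in spheroids and 20.1%, 17.0% and 0.509% in attached cells. Thinned this way, both resistant lines again lay far above treatment-naïve cells, and attached cells of both lines lay above their spheroids.

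VCAM1 UMIs were found in fewer cells for its level. The shares were 6.94% (6.15 to 7.80) of doxorubicin-resistant, 13.9% (12.8 to 15.1) of paclitaxel-resistant and 11.6% (10.6 to 12.5) of treatment-naïve spheroid cells. Of attached cells, 11.3% (10.5 to 12.04), 35.6% (34.4 to 36.9) and 15.5% (14.5 to 16.5) held a UMI in the same order. At 1000 UMIs per cell they were 4.07%, 10.7% and 9.01% in spheroids and 4.48%, 18.1% and 7.48% in attached cells. The attached paclitaxel-resistant population thus had more cells with VCAM1 than treatment-naïve cells, 2.30-fold, whereas the number of UMIs per cell that held any was 3.30 against 3.07. For NCAM1 the same comparison gave 20.9-fold in share and 1.503-fold in UMIs per cell that held any. How far low counts set this split was not tested for either gene.

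If all cells of a population carried a gene at 1 common level, the share of cells with a UMI could be computed from each cell's depth and Poisson counting. For NCAM1 the observed share was close to this value: 0.927 and 0.956 of it in doxorubicin- and paclitaxel-resistant spheroids, and 0.949 and 0.951 of it in attached cells. For VCAM1 it was 0.517, 0.579 and 0.534 of it in doxorubicin-resistant, paclitaxel-resistant and treatment-naïve spheroids, and 0.465, 0.543 and 0.424 of it in attached cells. In attached paclitaxel-resistant cells this meant 35.6% of cells with VCAM1 against 65.6% for an even level. NCAM1 was thus detected in nearly as many resistant cells as a common level would give, and VCAM1 in clearly fewer cells than a common level would give in every population. A cell without a UMI is not shown to lack the gene.

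**Figure D2:**
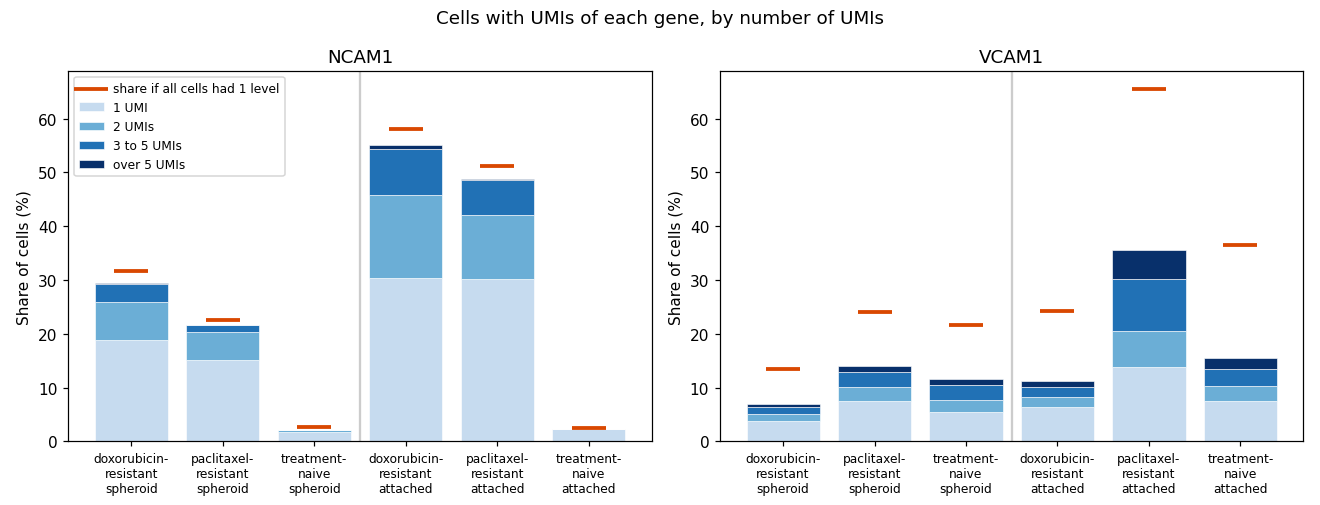
Share of cells (percent) in each population with 1, 2, 3 to 5 or over 5 UMIs of NCAM1 (left) and VCAM1 (right). The orange line is the share of cells with any UMI that a common level in all cells would give: NCAM1 comes close to it (48.7% against 51.3% in attached paclitaxel-resistant cells), and VCAM1 stays well under it (35.6% against 65.6%).

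Genes of like abundance, within 2-fold of the UMIs of each gene, place these values. In attached doxorubicin-resistant cells 3 of 32 such genes were less evenly spread than VCAM1, in attached paclitaxel-resistant cells 4 of 50 and in attached treatment-naïve cells 2 of 42. The median ratio of the like genes was 0.875, 0.897 and 0.859 in these populations. In spheroids 10 of 39, 6 of 49 and 6 of 44 genes were less even than VCAM1 in doxorubicin-resistant, paclitaxel-resistant and treatment-naïve cells. Beside NCAM1, 40 of 50 like genes were less even in attached doxorubicin-resistant, 33 of 44 in attached paclitaxel-resistant and 24 of 31 in attached treatment-naïve cells. In spheroids these counts were 38 of 45, 40 of 48 and 14 of 30, so that NCAM1 was no more even than its like genes in treatment-naïve spheroids.

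The uneven spread of VCAM1 came with cells of high counts. Over 5 UMIs were held by 82 doxorubicin-resistant, 325 paclitaxel-resistant and 110 treatment-naïve attached cells, and these cells carried 40.2%, 46.0% and 47.7% of all VCAM1 UMIs of their populations. The highest cell held 31, 53 and 51 UMIs. For NCAM1 the highest attached cell held 8, 10 and 2 UMIs in the same order, and 42 doxorubicin-resistant and 6 paclitaxel-resistant cells held over 5. The 1% of attached cells with most UMIs of a gene carried 37.0% and 15.6% of VCAM1 UMIs in doxorubicin- and paclitaxel-resistant cells but 6.21% and 6.16% of NCAM1 UMIs. Leaving out the 1% of cells with most UMIs in all moved no fold of either gene by more than its counting interval.

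The 2 genes were not exclusive within a cell. UMIs of both were found in 474 of 7032 doxorubicin-resistant and 1120 of 5896 paclitaxel-resistant attached cells, and in 129 and 212 spheroid cells. At 1000 UMIs per cell, 70 and 183 attached cells of the doxorubicin- and paclitaxel-resistant lines held both, against 63.2 and 181 if the genes were independent. In resistant spheroids 19 and 42 cells held both, against 14.7 and 31.8. In paclitaxel-resistant spheroids VCAM1 was 1.73-fold (1.32 to 2.25) higher in cells with an NCAM1 UMI than in cells without. The ratio was 1.48 (0.949 to 2.23) in doxorubicin-resistant spheroids. In attached doxorubicin- and paclitaxel-resistant cells it was 1.35 (1.09 to 1.67) and 1.16 (1.03 to 1.30). Grouped by VCAM1 instead, NCAM1 had ratios of 1.17 (0.697 to 1.85) and 1.28 (0.908 to 1.77) in doxorubicin- and paclitaxel-resistant spheroids. In the attached lines these were 1.08 (0.853 to 1.36) and 1.00 (0.857 to 1.17).

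ABCB1, the drug efflux pump P-glycoprotein (chromosome 7, 87503017 to 87713295), was the gene whose level over the 6 populations was most like that of NCAM1. The Pearson correlation of log2(CPM + 1) was 0.995 for ABCB1 over these 6 points, the highest of 276 genes, followed by ESR1 (0.970), KRT8 (0.967), EPCAM (0.964) and KRT18 (0.958). Of these, ESR1 (0.619 to 5.23 CPM, 7 to 154 UMIs) and EPCAM (1.24 to 6.28 CPM, 14 to 147 UMIs) lay near the floor in every population. At such levels the 1 added to CPM weighs on the correlation. The least like were ALDH1A1 (-0.997) and IGFBP3 (-0.991). VCAM1 was most like CXCL16 (0.955), MMP11 (0.920), ITGAX (0.845), NEAT1 (0.827) and MMP2 (0.817), and least like CCL4 (-0.878) and CD244 (-0.868). The correlation was -0.13 between VCAM1 and ABCB1 and -0.03 between VCAM1 and NCAM1. These 6 points come from 2 cartridges and are mostly a contrast of resistant with treatment-naïve cells, so the correlations are a description.

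Within the resistant populations, however, NCAM1 differed little between cells with few and many ABCB1 UMIs. Cells were grouped by their ABCB1 UMIs at 1000 UMIs per cell. In attached doxorubicin-resistant cells NCAM1 stood at 212, 221, 234, 226 and 237 CPM in cells with 0, 1, 2, 3 to 5 and over 5 ABCB1 UMIs. In attached paclitaxel-resistant cells it stood at 201, 196, 187, 203 and 181 CPM. Cells with 3 or more ABCB1 UMIs against cells with none had NCAM1 ratios of 1.10 (1.04 to 1.17) and 0.951 (0.880 to 1.03) in these 2 populations, and of 1.04 (0.932 to 1.17) and 0.946 (0.814 to 1.10) in doxorubicin- and paclitaxel-resistant spheroids. The intervals of these ratios leave room for differences of at most 1.23-fold in either direction. In paclitaxel-resistant spheroids, cells with over 5 ABCB1 UMIs alone held 111 CPM (94.9 to 129) of NCAM1, against 135 CPM (120 to 150) with none. With cells best matched to their own population, the ratio of 3 or more against none there was 0.912 (0.777 to 1.07). Cells without a detected ABCB1 UMI carried less NCAM1 than ABCB1-rich cells in the doxorubicin-resistant lines and more in the paclitaxel-resistant ones, and the interval left out 1 in attached doxorubicin-resistant cells.

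VCAM1 was lower in ABCB1-rich cells of the paclitaxel-resistant spheroids. It stood at 199 CPM (181 to 218) in cells with no ABCB1 UMI and at 169, 129, 128 and 62.8 CPM (50.8 to 76.8) in cells with 1, 2, 3 to 5 and over 5. Cells with 3 or more ABCB1 UMIs held 2.08-fold (1.80 to 2.42) less VCAM1 than cells with none, 95.5 against 199 CPM. The same ratio was 0.967 (0.796 to 1.18) in doxorubicin-resistant spheroids, 0.816 (0.731 to 0.912) in attached doxorubicin-resistant cells and 1.04 (0.979 to 1.11) in attached paclitaxel-resistant cells. These 3 ratios depended on the cells compared. In doxorubicin-resistant spheroids the ratio was 1.29 (1.02 to 1.64) with cells best matched to their own population, and with over 5 against 0 UMIs as deposited it was 0.925 (0.799 to 1.08) and 0.843 (0.767 to 0.928) in attached doxorubicin- and paclitaxel-resistant cells. In attached doxorubicin-resistant cells the levels had no single direction, with 70.4, 90.5, 95.5, 71.9 and 50.5 CPM over the 5 classes. The correlation between ABCB1 and either gene over cells was weak in all 4 resistant populations, between -0.09 and 0.04 on 2164 to 7032 cells. Whether the populations differ in these ratios was not tested.

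**Figure D3:**
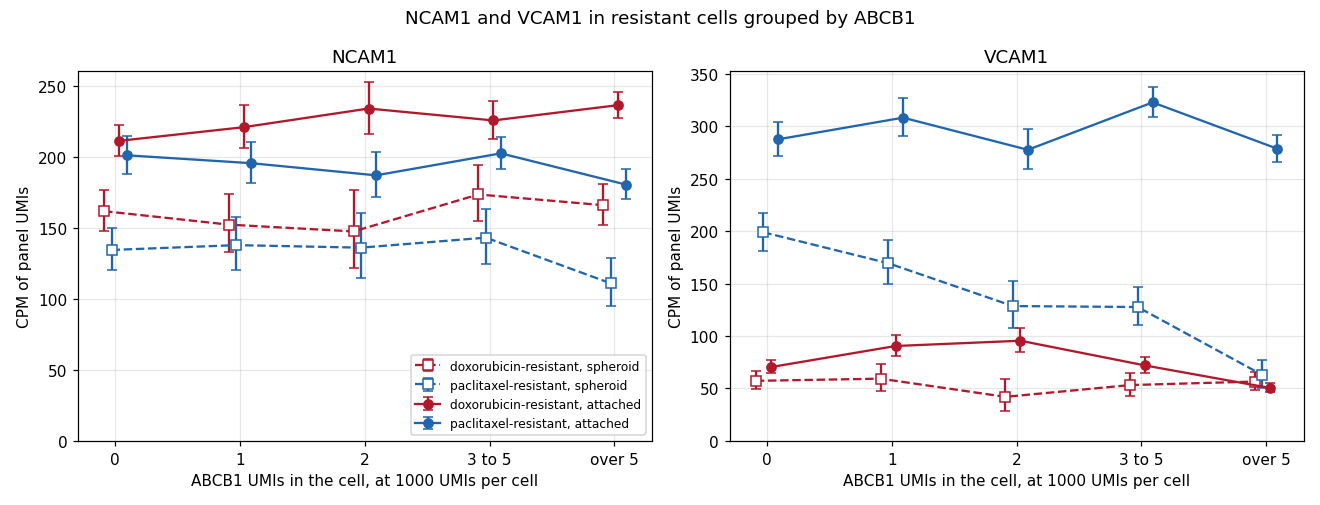
NCAM1 (left) and VCAM1 (right) in CPM with exact Poisson 95% intervals, in resistant cells grouped by ABCB1 UMIs after thinning each cell to 1000 UMIs. NCAM1 lies between 111 and 237 CPM with little slope in the 4 populations, and VCAM1 drops to 62.8 CPM in paclitaxel-resistant spheroid cells with over 5 ABCB1 UMIs, against 199 CPM in those with none.

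In treatment-naïve spheroids taken as a whole, NCAM1 was higher in cells with ABCB1. Of 4362 treatment-naïve spheroid cells, 89 held over 5 ABCB1 UMIs, and these cells carried 40.8% of the NCAM1 UMIs. NCAM1 stood at 134 CPM (98.9 to 177) in them against 5.02 CPM (3.64 to 6.77) in cells without ABCB1, and 33.7% against 1.13% of cells held an NCAM1 UMI. These classes used deposited counts, with median depths of 3006 and 1381 UMIs, and the shares depend on depth. With cells thinned to 1000 UMIs, NCAM1 was found in 14.3% of 35 cells with over 5 ABCB1 UMIs and 0.449% of 2229 with none. Among cells best matched to their own population, 11 held 3 or more ABCB1 UMIs at 1000 UMIs, and the NCAM1 ratio to cells with none was 5.34 (0.131 to 32.3), an interval that includes 1, against 22.8 (13.4 to 37.8) over all cells of that depth. The level in the 89 cells lies within the range of the resistant spheroids, 132 and 162 CPM. VCAM1 stood at 57.3 CPM (35.5 to 87.6) in the 89 cells against 116 CPM (109 to 123) in cells without ABCB1. Without these cells, a choice made after seeing the data, NCAM1 was 24.99-fold and 20.3-fold higher in doxorubicin- and paclitaxel-resistant than in treatment-naïve spheroids. In attached treatment-naïve cells 34 cells held over 5 ABCB1 UMIs, with 3 NCAM1 UMIs among them and NCAM1 at 18.5 CPM (3.81 to 54.0) against 4.99 CPM (3.85 to 6.36) without ABCB1.

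Other values moved with the treatment-naïve NCAM1 UMIs. Each cell with 1000 UMIs or more was matched to the summed profile of the 3 populations of its cartridge. NCAM1, VCAM1 and the efflux pump genes ABCB1 and ABCG2 were left out of the profile. Among treatment-naïve spheroid cells, NCAM1 stood at 33.0 CPM in the 530 that came closest to a resistant population and at 4.66 CPM in the 1912 that came closest to the treatment-naïve one. By depth, the shallowest group of treatment-naïve spheroid cells (median 114 UMIs) held 76.0 CPM (36.4 to 140) on 10 UMIs, and the 2 deepest groups 8.78 and 8.93 CPM. The number of NCAM1 UMIs per 100 ABCB1 UMIs was 2.61 in doxorubicin-resistant, 3.80 in paclitaxel-resistant and 3.71 in treatment-naïve spheroids. In attached cells it was 2.95 with doxorubicin and 4.16 with paclitaxel resistance, and 4.15 in treatment-naïve cells. The part that mislabelled cells, doublets or RNA free in the cartridge have in the treatment-naïve counts was not tested.

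Cells with a VCAM1 UMI differed from cells without in more than VCAM1. Cells thinned to 1000 UMIs were compared within each population, with median depths before thinning of 2864 to 3572 UMIs in cells with VCAM1 and 3346 to 3822 in cells without. In cells with a VCAM1 UMI the mesenchymal and matrix genes were mostly higher. Of those measured, 11 of 16, 12 of 17 and 17 of 19 had a ratio over 1 in doxorubicin-resistant, paclitaxel-resistant and treatment-naïve spheroids, and 14 of 17, 13 of 18 and 12 of 17 in attached cells. Their median log2 ratio was 0.36, 0.43 and 0.71 in spheroids and 0.41, 0.26 and 0.53 in attached cells, beside -0.02, -0.01, 0.05, 0.04, 0.11 and -0.05 over all genes.

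Named genes carry this pattern. PDGFRB, the platelet-derived growth factor receptor β of stromal cells, was 4.50-fold (4.13 to 4.89) higher in VCAM1-positive than in VCAM1-negative attached treatment-naïve cells, 3.81-fold (3.63 to 4.01) in treatment-naïve spheroids and 2.98-fold (2.59 to 3.42) in doxorubicin-resistant spheroids. S100A4, a calcium-binding protein of motile cells, was 4.41-fold (4.19 to 4.64) higher in attached treatment-naïve cells. Collagen genes were among the 3 highest ratios in resistant spheroids but did not lead. COL1A1 was 2.78-fold (2.56 to 3.00) higher in doxorubicin-resistant spheroids, below PDGFRB, and COL3A1 2.29-fold (2.20 to 2.40) higher in paclitaxel-resistant ones. In paclitaxel-resistant spheroids ROS1 and IGFBP3 lay above COL3A1, on 13 and 12 UMIs in the VCAM1-positive cells. WISP1, a matricellular protein, was 2.20-fold (1.85 to 2.61) higher in attached doxorubicin-resistant cells. The cytokine TNF was 6.09-fold (3.39 to 10.4) higher in the same population, on 18 UMIs in the VCAM1-positive cells.

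In attached paclitaxel-resistant cells, all 10 measured TNF, interleukin 1 and NF-κB genes had a ratio over 1, with a median log2 ratio of 0.28 against 0.11 over all genes. Their ratios were over 1 in 10 of 13 genes in attached doxorubicin-resistant and 7 of 10 in attached treatment-naïve cells. The medians there were 0.17 and 0.09, against 0.04 and -0.05 over all genes. In doxorubicin-resistant, paclitaxel-resistant and treatment-naïve spheroids 7 of 10, 7 of 9 and 6 of 10 had a ratio over 1. Medians in these spheroids were 0.09, 0.25 and 0.09, against -0.02, -0.01 and 0.05 over all genes. The chemokine CXCL14 (2.20-fold, 1.41 to 3.36), the pattern receptor TLR1 (2.18-fold, 1.55 to 3.04) and the chemokine CCL3 (2.10-fold, 1.27 to 3.40) led the attached paclitaxel-resistant cells. CCL3 ran the other way in attached treatment-naïve cells, 2.84-fold (2.08 to 4.00) lower in VCAM1-positive cells. The basal and epithelial genes ran the other way in treatment-naïve cells, where 2 of 11 in spheroids and 1 of 10 in attached cells had a ratio over 1. In treatment-naïve spheroids the basal keratins KRT5 and KRT14 were 5.68-fold (3.73 to 9.10) and 4.00-fold (3.43 to 4.69) lower in VCAM1-positive cells, and the calcium-binding protein S100A9 was 6.61-fold (6.31 to 6.93) lower.

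Genes of G2 and mitosis were lower in VCAM1-positive cells of 5 of the 6 populations. None of the 16 measured genes had a ratio over 1 in doxorubicin- or paclitaxel-resistant spheroids or in any attached population. Their median log2 ratio was -0.56 and -0.80 in these spheroids and -0.51, -0.94 and -1.19 in attached doxorubicin-resistant, paclitaxel-resistant and treatment-naïve cells. CDC20, the activator of the anaphase-promoting complex, was 2.46-fold (2.37 to 2.56) lower in VCAM1-positive attached paclitaxel-resistant cells, and CCNB1, the mitotic cyclin B1, 2.42-fold (2.35 to 2.49) lower. In treatment-naïve spheroids 8 of 16 genes had a ratio over 1 and the median was 0.00. The G1/S and replication genes had no such common direction, with median log2 ratios from -0.51 to 0.12.

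**Figure D4:**
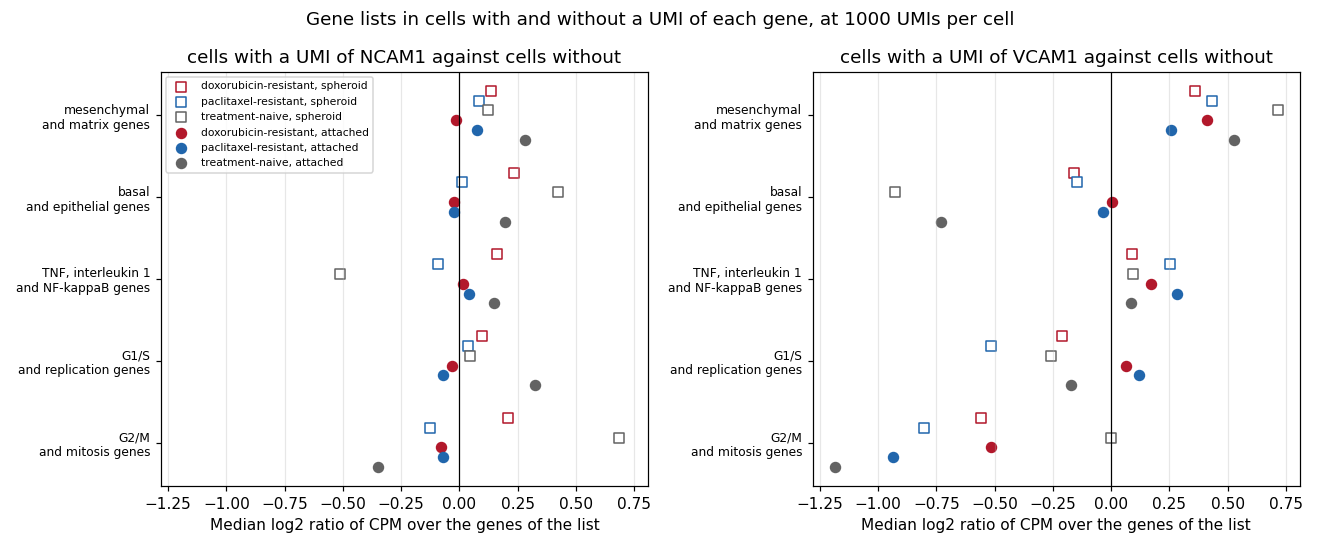
Median log2 ratio over the genes of 5 lists between cells with and cells without a UMI of NCAM1 (left) or VCAM1 (right), after thinning to 1000 UMIs per cell, with 1 symbol per population. In VCAM1-positive cells the G2/M genes lie at -0.51 or below in 5 populations and at 0.00 in treatment-naïve spheroids, and in NCAM1-positive resistant cells the medians of these 5 lists lie between -0.13 and 0.23.

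Grouping cells the other way gave the size of these gradients for VCAM1. The G2/M grouping was chosen after the ratios above were seen. Cells were ranked by the summed UMIs of the 16 G2/M genes and split into 3 groups of similar size. In attached paclitaxel-resistant cells VCAM1 stood at 531 CPM (514 to 548) in the lowest group, 273 CPM in the middle and 124 CPM (117 to 132) in the highest, a 4.28-fold (4.00 to 4.59) difference. In attached doxorubicin-resistant cells it stood at 116, 72.6 and 26.6 CPM, 4.35-fold (3.81 to 4.98), and in attached treatment-naïve cells at 178, 140 and 44.4 CPM, 4.01-fold (3.56 to 4.52). The difference was smaller in doxorubicin- and paclitaxel-resistant spheroids, 2.22-fold (1.79 to 2.76) and 3.27-fold (2.81 to 3.82). In treatment-naïve spheroids VCAM1 was highest in the middle group, at 103, 156 and 94.3 CPM. The level of VCAM1 in attached cells thus differed more between these groups of 1 population than between paclitaxel-resistant and treatment-naïve cells as a whole (2.52-fold). It differed by a similar amount, 4.34-fold (4.12 to 4.56), between attached paclitaxel- and doxorubicin-resistant cells as a whole. The groups also differed in depth, with medians of 2461 to 3628 UMIs in the lowest and 4110 to 4464 in the highest, and the part of depth was not tested.

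PDGFRB, chosen after its ratios were seen, gave the opposite slope. In attached treatment-naïve cells VCAM1 stood at 78.9 CPM (74.7 to 83.3) in cells without a PDGFRB UMI at 1000 UMIs, 168 CPM in those with 1 to 2 and 624 CPM (573 to 678) in those with 3 or more. In treatment-naïve spheroids it stood at 30.2, 100 and 337 CPM over the same classes, an 11.2-fold (9.49 to 13.2) difference between the ends. The difference was 4.96-fold (3.97 to 6.18) and 2.79-fold (2.41 to 3.23) in doxorubicin- and paclitaxel-resistant spheroids. It was 3.04-fold (2.55 to 3.61) and 1.84-fold (1.71 to 1.98) in the same lines when attached. VCAM1 and PDGFRB thus went together in all 6 populations, and the ratio was lowest in attached paclitaxel-resistant cells, whose PDGFRB-negative cells held 247 CPM of VCAM1. NCAM1 differed by 1.16- to 1.45-fold between the same classes of resistant cells.

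**Figure D5:**
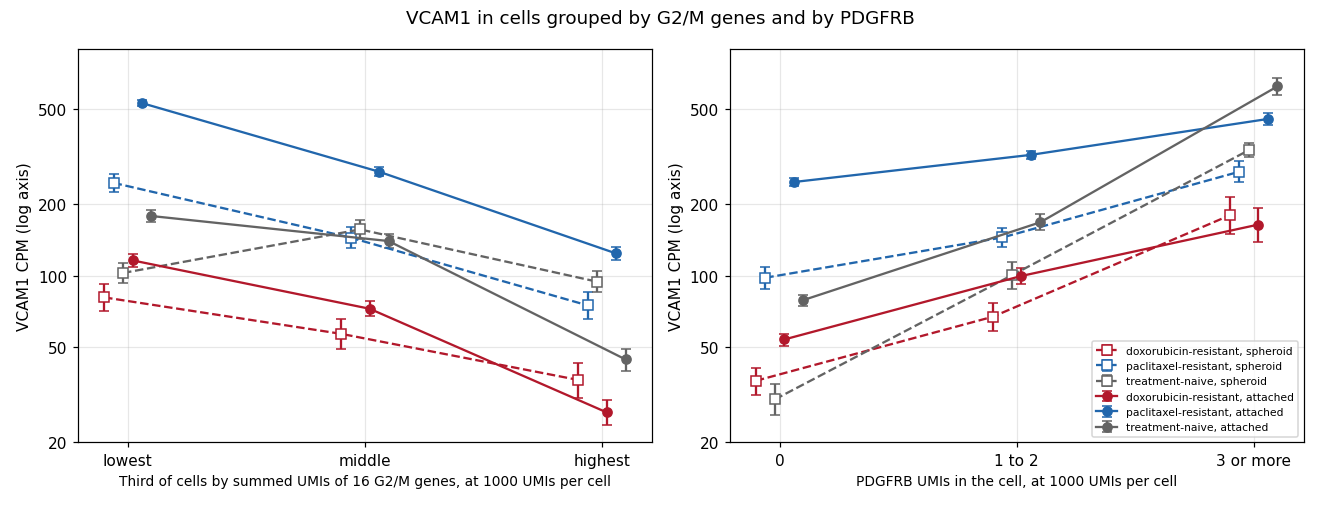
VCAM1 in CPM on a log axis, with exact Poisson 95% intervals, in cells grouped by the summed UMIs of 16 G2/M genes (left, 3 groups of similar size from lowest to highest) and by PDGFRB UMIs (right), both at 1000 UMIs per cell. VCAM1 falls across the G2/M groups in every population but treatment-naïve spheroids (531 to 124 CPM in attached paclitaxel-resistant cells) and climbs with PDGFRB in all 6 (78.9 to 624 CPM in attached treatment-naïve cells).

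In attached resistant cells, NCAM1-positive and NCAM1-negative cells differed little in the medians of the gene lists, though single genes differed more. Over the 8 gene lists in attached doxorubicin- and paclitaxel-resistant cells, the median log2 ratios lay between -0.08 and 0.09. In spheroids they lay between -0.03 and 0.23 with doxorubicin and between -0.42 and 0.25 with paclitaxel resistance, where the lowest was that of 4 integrins and partners, beside 0.13 and 0.08 over all genes. The highest ratio in attached paclitaxel-resistant cells belonged to DCN, the matrix proteoglycan decorin, at 1.94-fold (1.69 to 2.23), and the lowest to S100A9, 1.76-fold (1.36 to 2.31) lower. CCL5, a T cell chemokine, was lower in NCAM1-positive cells of both resistant spheroid populations, 1.90-fold (1.68 to 2.16) with doxorubicin and 2.11-fold (1.79 to 2.49) with paclitaxel resistance. ABCB1 was 1.13-fold (1.08 to 1.18) higher in NCAM1-positive doxorubicin-resistant spheroid cells and 1.36-fold (1.26 to 1.47) lower in NCAM1-positive paclitaxel-resistant spheroid cells. In treatment-naïve spheroids, the 20 NCAM1-positive cells at this depth held 11.1-fold (8.36 to 14.4) more ABCB1 and 14.3-fold (5.56 to 52.3) less KRT14 than NCAM1-negative cells, on 60 and 4 UMIs.

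Markers of other cells that can carry NCAM1 or VCAM1 were looked at beside these levels. The natural killer and T cell genes summed to 21.9 and 13.6 CPM in attached doxorubicin- and paclitaxel-resistant cells against 14.8 CPM in treatment-naïve cells, and to 119 and 56.2 CPM against 86.8 CPM in spheroids, with 1 to 5 of the 16 genes at 0. In doxorubicin-resistant spheroids 5 of 7 measured genes of this list were called higher (FCGR3A, CD244, GZMA, CD3D and LCK) and 2 lower. Of all genes, 16.5% were called higher and 17.3% lower in that comparison. In attached doxorubicin-resistant cells CD244 and PTPRC were called higher and FCGR3A lower, of 4, beside 24.3% and 22.8% of all genes. With paclitaxel resistance 2 of 5 were called higher and 3 lower in spheroids, beside 9.92% and 20.2% of all genes. In attached cells 1 of 3 was called higher and 2 lower, beside 20.2% and 25.2%. Their part in the NCAM1 levels was not tested. The 4 endothelial genes in the files summed to 467 and 244 CPM against 191 CPM in attached cells and to 1344 and 1195 CPM against 508 CPM in spheroids. Of these genes 2 were measured, and 1 of them, ESM1, a secreted proteoglycan, was called higher in all 4 comparisons with treatment-naïve cells. Of all genes, 24.3% and 20.2% were called higher in attached doxorubicin- and paclitaxel-resistant cells, and 16.5% and 9.92% in spheroids. The part of endothelial genes in the VCAM1 levels was not tested. Of 7 neural and neuroendocrine markers, only MAPT, the microtubule-associated protein tau, was in the files. MAPT stood at 277 and 183 CPM in attached doxorubicin- and paclitaxel-resistant cells against 55.5 CPM in treatment-naïve cells, and at 280 and 85.1 CPM against 49.9 CPM in spheroids. It was called higher in resistant cells in all of these comparisons except that of paclitaxel-resistant with treatment-naïve spheroids.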

How the data were processed

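The authors deposited, for each of the 6 populations, a matrix of counts: UMIs per panel gene and cell, adjusted upstream (RSEC) and joined with putative cells. The submitters' processing notes name hg38. Filters on cells before deposit, and the handling of cells with more than 1 tag, are not given in the sources used here. All deposited cells were used and no doublet caller was run. UMIs were summed per population and scaled to 1000000 (CPM). With 1 library per population no test was made. Folds carry Clopper-Pearson 95% intervals of a ratio of Poisson counts, levels and shares exact Poisson and binomial ones, all for counting error only. Calls needed a fold of 2 and 50 UMIs in the higher population, after the study's methods, which set the minimum in the resistant one. Classes by ABCB1 or a UMI of a gene used cells of at least 1000 UMIs thinned to 1000 (seed 1), as did those by PDGFRB and G2/M genes (seed 2). Except where thinning is named, treatment-naïve cells of over 5 ABCB1 UMIs and those without ABCB1 were taken at deposited counts from all cells. NCAM1, VCAM1 and ABCB1 were described in full. For each list, up to 2 genes per direction, for likeness the 5 most and 2 least like genes, and for cells with a UMI the 3 highest and lowest genes were eligible to be named. ITGB1, MAPT, PVR, THY1, TIGIT and the lymphocyte genes beyond 2 per direction, and the classes by PDGFRB and G2/M genes, were chosen after their values were seen. The genes and lists were chosen with earlier results of these data known. Python 3.11.15, numpy 2.4.6 and scipy 1.17.1 were used, and the folds and thinning were tested on simulated counts. Alternatives were other totals, filters on cells and weights of cells.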

Additional observations from a re-analysis of the deposited data

Results flagged for a closer look

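Folds of both genes ran in opposite directions between groups. NCAM1 in spheroids over attached cells was 0.716-fold in the doxorubicin-resistant and 0.681-fold in the paclitaxel-resistant population, but 1.75-fold in the treatment-naïve one. The treatment-naïve fold rests on 120 and 130 UMIs. Its direction turned with unscaled totals and with cells best matched to their own population, and it grew with the mean of each cell's CPM. VCAM1 over treatment-naïve cells was 0.580-fold in attached and 0.487-fold in spheroid doxorubicin-resistant cells, but 2.52-fold in attached and 1.28-fold in spheroid paclitaxel-resistant cells. With 1 library per population these differences between groups were not tested.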

How the results depend on the processing

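No paired analysis was possible because each population is 1 library and the labels number no replicates. Under all alternatives the 4 NCAM1 folds over treatment-naïve cells stayed called. Moves below are those past the counting interval, and the cause was not tested beyond what each setting changes by construction. Unscaled totals, which shift every log2 fold by -1.48 to 0.46, gave for NCAM1 51.3 (doxorubicin-resistant over treatment-naïve, attached), 9.28 (paclitaxel-resistant over treatment-naïve spheroids), 1.47 and 1.54 (doxorubicin- over paclitaxel-resistant, attached and spheroid), and spheroid over attached 0.256 with doxorubicin and 0.246 with paclitaxel resistance and 0.923 in treatment-naïve cells. For VCAM1 they gave 0.798 (doxorubicin) and 2.75 (paclitaxel) over attached treatment-naïve cells, 0.954 (paclitaxel, spheroids), 0.290 and 0.476 (doxorubicin over paclitaxel, attached and spheroid), and spheroid over attached 0.287 with doxorubicin and 0.175 with paclitaxel resistance and 0.504 in treatment-naïve cells. Totals without the 5 most abundant genes (shift of -0.09 to 0.27) gave NCAM1 1.10 (doxorubicin over paclitaxel, attached) and 0.774 (spheroid over attached, doxorubicin), and VCAM1 2.73 (paclitaxel, attached), 1.54 (paclitaxel, spheroids), 0.566 (doxorubicin, spheroids, call lost) and 0.216 (doxorubicin over paclitaxel, attached). Cells best matched to their own population gave NCAM1 35.8 (doxorubicin, spheroids), 28.8 (paclitaxel, spheroids) and 0.776 (spheroid over attached, treatment-naïve), and VCAM1 0.519 and 0.439 (doxorubicin, attached and spheroid) and 0.212 (doxorubicin over paclitaxel, attached). The mean of each cell's CPM gave NCAM1 4.44 and 3.56 (doxorubicin and paclitaxel, spheroids) and 5.56 (spheroid over attached, treatment-naïve), and VCAM1 0.545 (doxorubicin, attached). Leaving out treatment-naïve cells of over 5 ABCB1 UMIs, added after seeing the data, gave NCAM1 24.99 and 20.3 (doxorubicin and paclitaxel, spheroids). Keeping cells of at least 1000 UMIs, or leaving out the 1% of cells with most UMIs, moved none of the 18 folds. Spheroid depth limits what a share of cells can show, and the treatment-naïve NCAM1 levels rest on 120 and 130 UMIs.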
